A study of Homo sapiens with 6 samples.

Results

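The genes described here encode the coats and cargo receptors that carry proteins between the endoplasmic reticulum (ER) and the Golgi, measured by RNA-seq in NCI-H660 cells. They were chosen by name, as the table rows whose symbol is on a list of 38 genes: 13 COPII genes, the SNARE SEC22B, 9 COPI coat genes, 8 TMED cargo receptors, 3 KDEL receptors and 4 other cargo receptors. All 38 were among the 17177 genes of the deposited table. NCI-H660 is an established line of neuroendocrine prostate cancer (NEPC) with no genotype other than wild type on its labels. The cells were treated with pyrvinium pamoate (PP), an approved anthelmintic drug, or with PBS as the control, and RNA was collected on day 3. Each treatment had 3 libraries. The PP concentration was not given in the sources used here, and the labels do not say whether the libraries of a treatment came from separate cultures, so p-values measure the spread between these libraries. The question addressed here was whether the transport genes differed between PP and PBS.

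Secretory proteins leave the ER in vesicles coated with COPII. The GTPase SAR1, loaded with GTP by its exchange factor PREB, recruits the inner coat of SEC23 and SEC24, in which SEC24 binds cargo and SEC23 stimulates GTP hydrolysis, and the outer cage of SEC13 and SEC31 completes the bud. The COPI coat, a complex recruited by ARF1, carries escaped ER proteins and receptors back from the Golgi, and cells that secrete hormones, such as neuroendocrine cells, run much of their protein output through this route.

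Values are FPKM (fragment counts divided by gene length and by library size) and are thus per length, so levels may be set side by side between genes. The gene lengths used are not given, so levels and shares compared between genes hold only as far as those lengths do. Each difference is the PP mean minus the PBS mean of log2(FPKM + 1), on which the change of a low gene comes out too small. The limma model covered 11726 genes, those averaging 1 FPKM or more, and a gene was called at a Benjamini-Hochberg adjusted p under 0.05. Of the 38 genes, 36 passed this filter, and COPZ2 and KDELR3 did not. In bulk RNA, fewer cells of a kind and less RNA per cell cannot be told apart. Whole counts recovered from the FPKM totalled 29064253 to 32481171 per library, and 877 to 16452 counts stood behind each FPKM of the COPII inner coat.

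Transport genes were higher with PP more often than lower. Of the 36 tested, 23 (63.9%) rose and 7 (19.4%) fell, beside 38.1% of all fitted genes that were higher and 34.4% that were lower. The median log2 fold change of the 36 genes was 0.23, against 0.02 over all genes fitted. In 33 of the 36 the PP libraries lay all above or all below the PBS libraries, as they did in 75.0% of all fitted genes. The differences were mostly moderate. At the methods' stricter cutoff (unadjusted P under 0.001 with a log2 fold change over 1 or under -1), 1 gene, SEC24D, was higher, beside 2.24% of all genes, and 0 were lower, beside 2.93% of all genes. With limma-voom on the recovered counts the lower count was also 0, and 7 of the 36 were lower at an unadjusted p under 0.05 in limma.

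The rise was broader in COPII than in COPI or the cargo receptor families. Of its 13 genes, 11 (84.6%) rose, beside 38.1% of all fitted genes, and the median log2 fold change was 0.49. It was not particular to COPII, since 15 of 18 (83.3%) tethers and golgins on a further list rose, with a median of 0.46. The count of falling genes was 0 by limma, 0 at an unadjusted p under 0.05 and 0 by limma-voom. All 13 had PP libraries entirely above their PBS libraries, where 75.0% of all fitted genes lay entirely above or entirely below. The share of all genes lying above was not counted separately. Within COPII the inner coat had the highest median, 0.54 over 8 genes, with 7 called higher. The outer cage had a median of 0.22, with both of its listed genes called. SEC31B, the paralog of SEC31A, was on the further list of exit site organisers. It was not called (log2 fold change -0.10, adjusted p = 0.173 from limma). The group of exit site and exchange genes had a median of 0.37, with 2 of 3 called.

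SEC24D (ENSG00000150961) encodes a cargo-binding subunit of the inner coat and had the largest difference of the 36 tested transport genes. Its hg19 position is chromosome 4, 119643978 to 119759838, minus strand. The values were 6.97, 6.79 and 7.64 in PBS replicates 1, 2 and 3, and 24.5, 24.6 and 24.3 FPKM in PP replicates 1, 2 and 3. The libraries of each treatment were close together and every PP library was more than 3-fold above every PBS library. The mean rose from 7.13 ± 0.448 to 24.5 ± 0.147 FPKM (SD, n = 3 each), a 3.43-fold change. The log2 fold change was 1.65 (95% confidence interval 1.54 to 1.76, adjusted p = 1.29e-09 from limma), from 877 to 1052 counts per PBS library and 3273 to 3509 per PP library.

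The other 3 SEC24 genes rose less. SEC24A had 7.34, 7.37 and 7.17 FPKM with PBS and 12.6, 12.9 and 13.9 with PP, a log2 fold change of 0.77 (95% confidence interval 0.65 to 0.88, adjusted p = 4.02e-07 from limma). SEC24B had 7.22, 6.71 and 7.27 with PBS and 10.3, 10.7 and 10.9 with PP, a log2 fold change of 0.53 (adjusted p = 6.25e-06). SEC24C, the most abundant of the 4 by FPKM, had 79.6, 80.2 and 81.5 with PBS and 108.3, 104.8 and 104.2 with PP, a log2 fold change of 0.39 (adjusted p = 1.90e-06). No PP library of any SEC24 gene reached down to a PBS library. The share of SEC24D in the family's summed FPKM went from 6.99% ± 0.342 with PBS to 15.9% ± 0.170 with PP (SD, n = 3), and that of SEC24C from 78.9% ± 0.382 to 68.7% ± 0.815. SEC24A went from 7.16% to 8.53%. The share of SEC24B was 6.93% with PBS and 6.89% with PP, and its libraries overlapped. The family sum was 102.0 FPKM with PBS and 154.0 with PP, or 1.51-fold.

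SEC23, the GTPase-activating subunit that pairs with SEC24, has 2 genes, and both rose. SEC23B had 48.6, 49.7 and 49.1 FPKM with PBS and 91.2, 88.5 and 87.7 with PP, a log2 fold change of 0.85 (95% confidence interval 0.77 to 0.92, adjusted p = 8.37e-09 from limma). SEC23A had 9.71, 8.40 and 8.76 with PBS and 13.2, 12.7 and 13.0 with PP, a log2 fold change of 0.49 (adjusted p = 2.29e-05). PBS replicate 1 was the highest control for SEC23A, and it was still below every PP library. SEC23A made up 15.4% of the pair with PBS and 12.7% with PP. The sum of both genes went from 58.1 to 102.1 FPKM, or 1.76-fold.

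SAR1A and SAR1B, the GTPases that start the coat, differed from each other. SAR1B had 11.5, 11.0 and 11.0 FPKM with PBS and 16.4, 16.6 and 17.3 with PP, a log2 fold change of 0.55 (adjusted p = 1.67e-06 from limma). SAR1A, at 23.6, 22.9 and 23.0 with PBS and 24.5, 23.9 and 25.0 with PP, was not called, with a log2 fold change of 0.07 (95% confidence interval -0.01 to 0.16, adjusted p = 0.115). SAR1A gave 67.5% of the summed FPKM of the pair with PBS and 59.3% with PP, and SAR1B the rest. Of SAR1B and SEC24A, 487 bases overlap on opposite strands of chromosome 5. Reads there could count for either gene unless the counting used strand, which is not stated.

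The other COPII genes rose by smaller steps, apart from PREB. PREB had 26.5, 26.7 and 26.8 FPKM with PBS and 43.8, 44.4 and 43.7 with PP, a log2 fold change of 0.70 (95% confidence interval 0.62 to 0.78, adjusted p = 4.25e-08 from limma). Its PP libraries lay far above its PBS libraries, and libraries of a treatment differed by less than 1 FPKM. SEC23IP, which binds SEC23 at exit sites, went from 9.60 ± 0.884 to 12.6 ± 0.580 FPKM (SD, n = 3), a log2 fold change of 0.37 (adjusted p = 5.27e-04). In the outer cage, SEC13 went from 44.8 ± 0.740 to 52.8 ± 2.25 FPKM (log2 fold change 0.23, adjusted p = 4.39e-04) and SEC31A from 29.1 ± 0.561 to 33.6 ± 0.849 (0.20, adjusted p = 7.31e-04). SEC16A, a scaffold of exit sites, was not called, at 28.5 ± 0.891 FPKM with PBS and 30.2 ± 0.591 with PP (log2 fold change 0.08, adjusted p = 0.0785). SAR1A and SEC16A were called higher when the libraries were rescaled to equal FPKM sums, with log2 fold changes of 0.12 (adjusted p = 0.0193) and 0.13 (adjusted p = 0.0114). SEC22B, a SNARE that helps these vesicles fuse, rose from 5.03 ± 0.368 to 5.98 ± 0.162 FPKM (log2 fold change 0.21, adjusted p = 0.00865). Its reads may be shared with near-identical pseudogenes, and its value is uncertain to that extent.

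**Figure D1:**
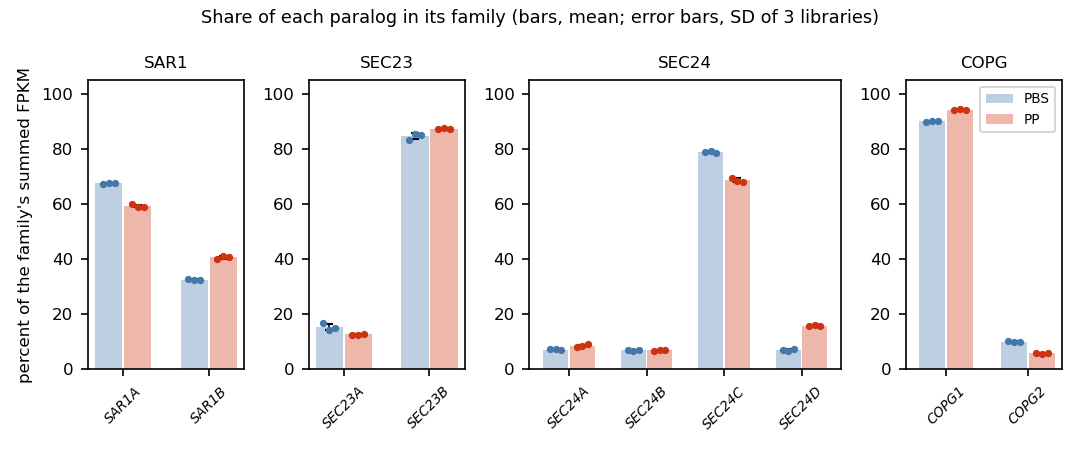
Share of each paralog in the summed FPKM of its family, in percent (y axis), for the SAR1, SEC23, SEC24 and COPG genes (x axis), with PBS (blue) and PP (red); bars are means, error bars the SD of 3 libraries and points the libraries. SEC24D went from 6.99% to 15.9% of the SEC24 genes and SAR1B from 32.5% to 40.7% of the SAR1 genes, with no overlap of libraries.

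Promoters of some transport genes are shown here because the unfolded protein response, which raises ER export capacity, acts through short DNA elements. RefSeq promoter windows (GRCh38.p14, 250 bases before to 50 bases after the start site) were found for 34 of the 38 genes, all but SEC24D, TMED9, KDELR2 and TMED4. Searched on both strands were the UPRE core TGACGTGG, the CRE core TGACGTCA, the CARE element TGATGNAAN, and ERSE and ERSE-II by name. The UPRE and CRE cores share 6 letters but cannot match the same 8 bases, and both ERSE forms hold letters of the UPRE core's other strand. The UPRE core was in a window of 7 of the 34 genes (20.6%), against 0.729% of all 35116 windows and 1.23% of the 9557 fitted genes with a window. These 7 were SEC23A, SEC24A, SEC16A, COPA, COPB1, COPB2 and KDELR3, of which SEC23A, SEC24A, COPB1 and COPB2 rose. SEC16A and COPA were not called, and KDELR3 was below the filter. Of all 36 tested transport genes, with or without the core, 23 (63.9%) rose. SEC23B, MCFD2, ARCN1 and PREB also rose, and their windows held no UPRE core. Whether the core went with the rise was not tested. CARE was in 1 of the 34 (2.94%), MCFD2, against 3.61% of windows and 2.53% of the fitted genes. ERSE, ERSE-II and the CRE core were in 0 of the 34, against 0.0769%, 0.0541% and 1.85% of windows and 0.146%, 0.146% and 4.0% of the fitted genes. A match is a stretch of letters and was not tested as a site that any factor uses. The windows of SEC24A and SEC23A, COPII genes that rose, are printed 5′ to 3′ in the direction of the gene with the UPRE core in capitals. The match starts 179 bases before the start site in SEC24A (chr5:134648535-134648834, plus strand) and 4 bases before it in SEC23A (chr14:39103186-39103485, minus strand).
SEC24A: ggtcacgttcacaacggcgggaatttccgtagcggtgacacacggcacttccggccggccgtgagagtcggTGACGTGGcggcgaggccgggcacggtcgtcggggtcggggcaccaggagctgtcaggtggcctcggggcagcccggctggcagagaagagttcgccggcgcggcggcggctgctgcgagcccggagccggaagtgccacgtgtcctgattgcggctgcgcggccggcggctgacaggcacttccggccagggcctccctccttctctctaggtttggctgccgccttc
SEC23A: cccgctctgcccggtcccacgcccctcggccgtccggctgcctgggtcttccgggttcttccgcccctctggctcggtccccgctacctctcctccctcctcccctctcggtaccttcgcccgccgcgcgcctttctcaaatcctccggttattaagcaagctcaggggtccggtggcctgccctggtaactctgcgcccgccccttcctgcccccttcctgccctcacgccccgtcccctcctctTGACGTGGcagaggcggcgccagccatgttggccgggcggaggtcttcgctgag

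The COPI coat moved less evenly than COPII. Of its 8 tested subunit genes, 5 (62.5%) rose and 2 (25.0%) fell, beside 38.1% and 34.4% of all fitted genes. Their median log2 fold change was 0.26. ARCN1, the delta subunit, and COPG1, a gamma subunit, had the highest values. ARCN1 had 53.3, 52.9 and 50.6 FPKM with PBS and 87.1, 85.9 and 90.2 with PP, a log2 fold change of 0.74 (95% confidence interval 0.66 to 0.82, adjusted p = 4.54e-08 from limma). COPG1 had 79.7, 81.5 and 82.3 with PBS and 129.3, 127.6 and 124.5 with PP, a log2 fold change of 0.64 (adjusted p = 5.00e-08). In both genes every PP library was above every PBS library by over 30 FPKM.

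Beta, beta prime and epsilon subunit genes rose by smaller amounts. COPB1 (beta) went from 57.8 ± 2.21 to 77.7 ± 0.641 FPKM (SD, n = 3), a log2 fold change of 0.42 (adjusted p = 2.91e-06 from limma). COPB2 (beta prime) went from 45.1 ± 0.837 to 54.8 ± 0.830 FPKM (0.27, adjusted p = 4.29e-05), and COPE (epsilon) from 139.2 ± 2.93 to 165.5 ± 6.76 (0.25, adjusted p = 1.55e-04). COPB1 shares 6245 bases and COPE 12375 bases with another annotated gene on the same strand. COPB2 overlaps MRPS22 on the opposite strand over 6552 bases. COPA, the alpha subunit, was not called. Its FPKM was 57.5, 58.5 and 59.5 with PBS and 59.7, 54.3 and 55.7 with PP, so that PP replicate 1 was above all PBS libraries and the other PP libraries below them. Its log2 fold change was -0.05 (95% confidence interval -0.14 to 0.04, adjusted p = 0.305), and 0.0011 after rescaling to equal sums.

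The gamma subunit genes moved apart. COPG2 had 9.15, 8.88 and 8.97 FPKM with PBS and 8.24, 7.51 and 7.75 with PP, a log2 fold change of -0.18 (95% confidence interval -0.29 to -0.07, adjusted p = 0.00832 from limma). COPG1 was the more abundant of the 2 and held 90.0% ± 0.277 of their sum with PBS and 94.2% ± 0.221 with PP (SD, n = 3). COPZ1, the zeta subunit, had 151.2, 140.5 and 142.3 FPKM with PBS and 127.8, 133.6 and 131.2 with PP, a log2 fold change of -0.14 (adjusted p = 0.00544). PBS replicate 1 was the highest of its libraries, and without it the log2 fold change was -0.11 (adjusted p = 0.0227). Its paralog COPZ2 was nearly silent, at 0.133 ± 0.0848 FPKM with PBS and 0.270 ± 0.198 with PP, from 1 to 5 and 4 to 14 counts per library. COPZ2 was not called in the fit with a lower filter (adjusted p = 0.228). The COPI coat has 1 copy of each of 7 subunits, and among ARCN1, COPA, COPB1, COPB2, COPE, COPG1 and COPZ1 the highest FPKM was 3.17 to 3.28 times the lowest in the PBS libraries and 2.88 to 3.18 times in the PP libraries. COPB2 was lowest in 5 of the 6 libraries.

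COPB1, which rose, and COPA, which was not called, both held the UPRE core in their promoter windows, and their sequences are printed for that contrast, with the match in capitals. The reverse complement of the core starts 48 bases before the start site of COPB1 (chr11:14499762-14500061, minus strand), and the core itself starts at base 6 of the COPA transcript (chr1:160343201-160343500, minus strand).
COPB1: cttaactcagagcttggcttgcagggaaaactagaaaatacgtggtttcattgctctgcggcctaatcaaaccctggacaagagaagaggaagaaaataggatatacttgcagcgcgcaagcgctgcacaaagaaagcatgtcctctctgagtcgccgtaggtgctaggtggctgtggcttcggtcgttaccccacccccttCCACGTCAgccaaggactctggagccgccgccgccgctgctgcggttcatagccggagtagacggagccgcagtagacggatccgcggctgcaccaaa
COPA: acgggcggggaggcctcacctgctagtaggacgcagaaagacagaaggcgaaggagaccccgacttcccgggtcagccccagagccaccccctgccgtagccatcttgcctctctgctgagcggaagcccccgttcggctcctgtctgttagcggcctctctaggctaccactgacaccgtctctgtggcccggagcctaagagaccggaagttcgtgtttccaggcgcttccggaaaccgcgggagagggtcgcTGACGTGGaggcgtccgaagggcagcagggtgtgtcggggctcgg

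The TMED genes encode the p24 proteins, which sit in the membranes of both kinds of vesicle and help to sort cargo such as GPI-anchored proteins. Of 8 tested, 3 (37.5%) rose and 3 (37.5%) fell, shares near those of all genes, and the median log2 fold change was 0.001. TMED4, of the alpha subfamily, fell most among the 36 transport genes. It lies at 44617493 to 44621886 on chromosome 7 of hg19, minus strand. TMED4 had 55.6, 56.0 and 55.2 FPKM with PBS and 38.2, 37.7 and 37.0 with PP. Its log2 fold change was -0.55 (95% confidence interval -0.63 to -0.48, adjusted p = 2.15e-07 from limma), and its PP mean lay 32.3% below the PBS mean, with no overlap of libraries.

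TMED1 and TMED3, of the gamma subfamily, also fell. TMED1 had 10.3, 11.0 and 11.7 FPKM with PBS and 8.06, 8.25 and 8.42 with PP, a log2 fold change of -0.37 (adjusted p = 1.30e-04 from limma). TMED3 had 6.11, 5.92 and 5.93 with PBS and 4.53, 4.48 and 4.43 with PP, a log2 fold change of -0.35 (adjusted p = 1.20e-04). PP libraries of both lay below all PBS libraries. The gamma genes TMED5 and TMED7 rose, TMED5 from 17.9 ± 0.422 to 21.3 ± 1.82 FPKM (SD, n = 3, log2 fold change 0.24, adjusted p = 0.00410) and TMED7 from 10.1 ± 0.356 to 11.4 ± 0.644 (0.16, adjusted p = 0.0191). The call of TMED7 was lost without PBS replicate 2 (0.16, adjusted p = 0.0528), PBS replicate 3 (0.14, adjusted p = 0.0676) or PP replicate 3 (0.12, adjusted p = 0.0681). TMED7 also shares 12952 bases with an annotated read-through gene on its strand.

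The p24 genes with the highest levels differed least. TMED2, of the beta subfamily, went from 129.4 ± 3.27 to 138.2 ± 3.58 FPKM (SD, n = 3), a log2 fold change of 0.09 (adjusted p = 0.0299 from limma). This call was lost without PBS replicate 2 (0.07, adjusted p = 0.133), PBS replicate 3 (0.10, adjusted p = 0.0540), PP replicate 2 (0.09, adjusted p = 0.0875) or PP replicate 3 (0.08, adjusted p = 0.0756). TMED10, of the delta subfamily, was at 83.1 ± 0.798 FPKM with PBS and 84.0 ± 1.21 with PP, a log2 fold change of 0.01 (95% confidence interval -0.05 to 0.08, adjusted p = 0.690). TMED9, the alpha relative of TMED4, was at 65.5 ± 1.93 and 65.0 ± 4.85 FPKM, a log2 fold change of -0.01 (95% confidence interval -0.13 to 0.10, adjusted p = 0.838). Libraries of PP and PBS overlapped in TMED9 and TMED10.

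KDEL receptors return escaped ER chaperones from the Golgi in COPI vesicles, and 0 of the 2 tested rose, by limma, at an unadjusted p under 0.05 and by limma-voom. KDELR1 fell. Its FPKM was 67.6, 65.8 and 67.3 with PBS and 56.6, 53.8 and 53.6 with PP, a log2 fold change of -0.29 (95% confidence interval -0.37 to -0.21, adjusted p = 4.25e-05 from limma). KDELR2, the more abundant, had 84.9, 85.3 and 86.3 FPKM with PBS and 90.1, 89.8 and 88.5 with PP. All its PP libraries were above its PBS libraries, but with a log2 fold change of 0.06 it was not called (95% confidence interval -0.0034 to 0.13, adjusted p = 0.0801). It was called higher after rescaling to equal sums (0.12, adjusted p = 0.00566) and with no filter on low genes (0.06, adjusted p = 0.0355). DAGLB, on the same strand, spans the whole of KDELR2 in the annotation used here. KDELR3 was low, at 0.343 ± 0.205 FPKM with PBS and 0.407 ± 0.0720 with PP from 8 to 30 and 20 to 28 counts per library, and was not called with the lower filter (adjusted p = 0.544). KDELR1 made up 43.8% of the summed FPKM of the 3 receptors with PBS and 37.8% with PP, and KDELR2 56.0% and 61.9%.

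Of the 4 other cargo receptors, 3 (75.0%) rose and 1 (25.0%) fell, beside 38.1% and 34.4% of all fitted genes. MCFD2 is the calcium-binding partner of the lectin LMAN1, and together they export coagulation factors V and VIII. MCFD2 (chromosome 2 of hg19, 47129009 to 47168994, minus strand) had 22.4, 21.5 and 21.0 FPKM with PBS and 38.6, 40.0 and 38.7 with PP, a log2 fold change of 0.83 (95% confidence interval 0.74 to 0.91, adjusted p = 3.69e-08 from limma). LMAN1 had 52.8, 52.9 and 52.8 with PBS and 66.9, 67.3 and 70.7 with PP, a log2 fold change of 0.36 (adjusted p = 6.12e-06). Both partners had all PP libraries above all PBS libraries, with a 1.81-fold change for MCFD2 and a 1.29-fold change for LMAN1. SURF4, a receptor for soluble cargo, went from 45.4 ± 0.684 to 54.1 ± 1.53 FPKM (SD, n = 3, log2 fold change 0.25, adjusted p = 1.26e-04). LMAN2, a lectin of the early secretory pathway, fell, from 137.3, 140.5 and 141.9 FPKM with PBS to 129.9, 126.5 and 116.8 with PP, a log2 fold change of -0.17 (adjusted p = 0.00407). PP replicate 3 was its lowest library. MCFD2 overlaps TTC7A on the opposite strand over 25987 bases. A window of MCFD2 is printed because it was the only gene here with a CARE match, shown in capitals. The reverse complement of the element starts 139 bases before the start site of this window (chr2:46916063-46916362, minus strand). Another MCFD2 window (chr2:46916004-46916303, minus strand), not printed, holds a match 198 bases before its start site.
MCFD2: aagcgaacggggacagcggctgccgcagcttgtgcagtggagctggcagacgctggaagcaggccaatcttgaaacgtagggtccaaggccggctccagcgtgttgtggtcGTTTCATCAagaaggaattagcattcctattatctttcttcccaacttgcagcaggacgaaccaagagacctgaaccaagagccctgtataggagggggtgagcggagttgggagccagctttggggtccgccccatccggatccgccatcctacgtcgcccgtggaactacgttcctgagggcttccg

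**Figure D2:**
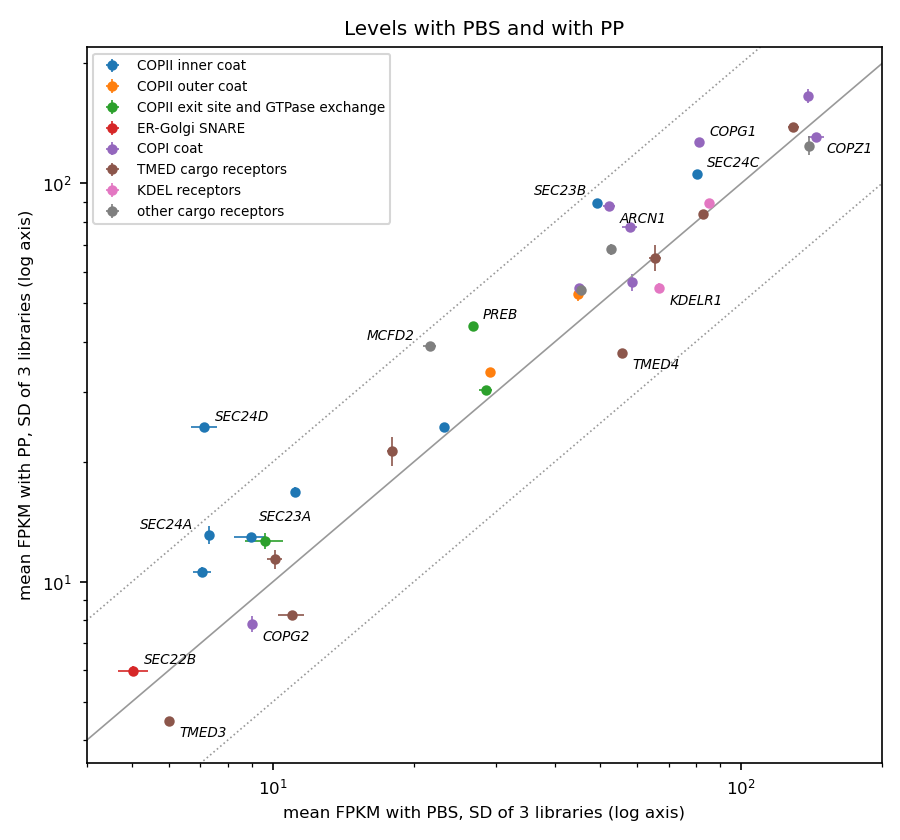
Mean FPKM with PP (y axis) against mean FPKM with PBS (x axis) of the 36 tested genes, both on log axes, with bars for the SD of 3 libraries; the solid line marks equal levels and the dotted lines a 2-fold difference. SEC24D, from 7.13 to 24.5 FPKM, lies outside the dotted lines, and every other gene lies between them.

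By level, the 36 genes ran from SEC22B, at 5.03 FPKM with PBS, to COPZ1, at 144.7. Next below COPZ1 with PBS were LMAN2 (139.9 ± 2.31, SD, n = 3), COPE (139.2 ± 2.93) and TMED2 (129.4 ± 3.27), and LMAN2 and COPE did not differ beyond their spread. With PP the order at the top was COPE (165.5 ± 6.76), TMED2 (138.2 ± 3.58), COPZ1 (130.9 ± 2.91) and COPG1 (127.1 ± 2.41), of which COPZ1 and COPG1 lay within 2 SD of each other. SEC24D, the second lowest COPII gene with 7.13 ± 0.448 FPKM and within its spread of SEC24B (7.07 ± 0.306) and SEC24A (7.29 ± 0.107) with PBS, was with PP level with SAR1A (24.5 ± 0.147 against 24.4 ± 0.590). Shares of paralogs were compared with an exact permutation test over the 6 libraries. With 3 libraries against 3 its smallest possible two-sided p is 0.1, and 8 of the 11 shares tested reached it (0.138 after Benjamini-Hochberg adjustment over the 11). Those of SEC24B (p = 0.7, exact), COPZ1 (p = 0.5, exact) and KDELR3 (p = 0.6, exact) did not.

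The rest of the ER-Golgi pathway was read from 7 lists of 91 further genes, of which 85 were tested. Of these, 52 (61.2%) rose and 16 (18.8%) fell, with a median log2 fold change of 0.24. Over all fitted genes 38.1% were higher and 34.4% lower, and the counts of each list stand beside these shares. Tethers and golgins, which capture arriving vesicles, were listed together with RAB GTPases. Of this list 15 of 18 rose, led by GOLGA5 (0.93), the COPII tether USO1 (0.89) and RAB6A (0.80). The 1 gene that fell was a RAB GTPase, and the median was 0.46. On the list of ER-Golgi SNAREs and proteins that act on SNAREs, 12 of 16 rose and 1, not itself a SNARE, fell (median 0.24). The highest values were those of BET1 (0.999), STX5 (0.75) and its partner SCFD1 (0.64). Of the ARF GTPases and their regulators 6 of 8 rose and 2 fell (0.24), among them ARFGAP3 (0.65), ARF4 (0.59) and ARF3 (-0.52). The TRAPP tether, at 7 higher and 3 lower of 14 (0.18), had members in both directions, such as TRAPPC1 (-0.82), TRAPPC2L (-0.69) and TRAPPC6B (0.81). Of the COG tether of the Golgi, 4 of 8 rose and 1 fell (0.24), and COG3 (1.19) was furthest out, ahead of COG6 (0.42) and COG1 (0.34).

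The widest range was among organisers of exit sites, of which 3 of 6 rose and 1 fell (median log2 fold change 0.30). MIA2, which binds the SEC23 and SEC24 coat at exit sites, had 6.52, 6.51 and 7.23 FPKM with PBS and 30.8, 30.5 and 30.7 with PP, a log2 fold change of 2.03 (adjusted p = 3.13e-10 from limma). Its relative MIA3 had a log2 fold change of 0.50. PDCD6, a calcium sensor that binds SEC31A, had 1037, 1065 and 1094 FPKM with PBS and 245.0, 238.3 and 221.0 with PP, a log2 fold change of -2.18 (adjusted p = 9.43e-11). MIA2 and PDCD6 moved in opposite directions with no overlap of libraries, and each by more than any of the 36 genes. The list of further cargo receptors also held other membrane proteins of the route, such as those of the YIPF and YIF1 genes. It had 5 of 15 higher and 7 lower (median -0.09), with CNIH2 (-1.42), ERGIC3 (-0.62) and YIPF4 (0.60) furthest out.

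Coats of other routes were counted beside these, and beside all fitted genes, of which 38.1% were higher and 34.4% lower. Of the clathrin coat and its adaptors 8 of 27 (29.6%) rose and 13 (48.1%) fell (median log2 fold change -0.12), led by AP2S1 (-0.68), AP3B1 (-0.63) and AP2A1 (-0.52). Of the retromer genes, which retrieve cargo from endosomes, 6 of 8 rose and 1 fell (median 0.19), led by SNX2 (0.30), VPS26A (0.28) and SNX6 (0.25). The falling count of the retromer was 0 without PBS replicate 1, 0 without PBS replicate 3 and 2 without PP replicate 1.

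Transcription factors known to act on secretory pathway genes were listed in full. Of the 8 tested, 6 (75.0%) rose and 1 (12.5%) fell, beside 38.1% and 34.4% of all fitted genes. XBP1, which binds the UPRE, had 43.6, 42.4 and 40.5 FPKM with PBS and 154.3, 150.0 and 153.9 with PP, a log2 fold change of 1.83 (adjusted p = 1.27e-10 from limma). DDIT3 had 109.5, 109.2 and 108.8 with PBS and 438.0, 407.0 and 400.9 with PP (1.92), and CREB3L2, known for raising SEC23A in secretory cells, had 2.71, 3.38 and 3.08 with PBS and 9.17, 9.76 and 9.13 with PP (1.35). These 3 factors were each over 3-fold higher in mean FPKM. ATF6 (0.78), ATF4 (0.65) and CREB3 (0.30) also rose, ATF6B (-0.43) fell, CREB3L4 (0.15) was not called and CREB3L1 was below the filter. These FPKM are mRNA levels per gene, which do not separate spliced forms, and the activity of the factors was not measured. The part of these factors in the rise of the transport genes was not tested.

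Markers of the line were checked beside these results. Of 8 neuroendocrine markers, 6 were tested, 1 rose (INSM1) and 4 fell (CHGA, CHGB, SYP and ENO2), NCAM1 was not called, and ELAVL3 and ELAVL4 were below the filter. Their summed FPKM was 204.8 to 216.9 in the PBS libraries and 167.3 to 182.6 in the PP libraries. Of 6 androgen receptor axis markers, KLK2 and KLK3 were not among the gene symbols of the deposited table. The other 4 were all below a mean FPKM of 1, with sums of 0.821 to 1.40 with PBS and 0.399 to 0.788 with PP. Markers of fibroblasts, immune and endothelial cells summed to 6.37 to 6.77 FPKM with PBS and 6.25 to 6.76 with PP, with 2 of 10 above a mean of 1 and 0 at 0 in all libraries. Of those 2, COL1A1 rose from 3.30 to 4.16 FPKM (log2 fold change 0.26, adjusted p = 0.00200 from limma), and CD68, at 1.41 and 1.09 FPKM, was not called (-0.21, adjusted p = 0.0524). The part of these markers in the values of the transport genes was not tested.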

How the data were processed

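Gene expression was read from 6 RNA-seq libraries of NCI-H660 cells, 3 with PP and 3 with PBS, collected on day 3. On replication the sources differ, since a figure legend calls the 3 samples independent and the methods give 2 per group. The authors deposited FPKM of 17177 gene symbols. The methods name hg19 with Bowtie, RSEM, Cufflinks and HTSeq, whereas the submitters' processing notes list GRCh38, fastp, HISAT2 and HTSeq, so the build, the counter and its use of strand behind the FPKM values are uncertain. The annotation is not given in the sources used here. These choices decide how reads of paralogs, pseudogenes and overlapping genes were shared. Libraries came from a stranded kit. Gene coordinates and overlaps are from the GENCODE annotation on hg19.

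Values of the 268 genes at 0 in all libraries were left out, and whole counts were recovered for the other 16909 (100.0%) with a tolerance of 0.01 of a count, in totals differing by up to 11.8%. The 11726 genes averaging 1 FPKM or more were fitted on log2(FPKM + 1) with limma 3.58.1 in R 4.3.3 (lmFit, then eBayes with trend), with Benjamini-Hochberg adjustment over all of them. COPZ2 and KDELR3 were fitted again with the filter lowered to 0.1. The fit was tested on simulated data. Python 3.11.15, numpy 2.4.6, pandas 2.3.3, scipy 1.17.1 and matplotlib 3.10.9 did the rest.

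The transport genes, the further lists, the motifs and the tests were chosen with earlier results of these data known. By the naming rule, any transport gene could be named, of each further list the 3 largest called changes, and the transcription factors in full. SEC31B was named outside this rule, as the paralog of SEC31A. Alternatives varied the pseudocount, filter, scaling, eBayes trend, libraries, replicate block and model (limma-voom on recovered counts). Between libraries chi-square divided by its degrees of freedom, from the counts, was 3.36 to 6.91 within treatments and 143.9 to 164.1 across them. No 2 libraries agreed within sampling noise, and all 6 were used. The result for 1 gene of the marker lists is not reported here, and it was left out of the lists' counts and sums.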

Additional observations from a re-analysis of the deposited data

How the results depend on the processing

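Call counts of the transport genes and further lists, and the transport genes' medians and log2 fold changes, were recomputed under 15 alternatives. Paralog shares were recomputed with each of the 6 libraries left out. Sums, ratios and motif counts were not recomputed. The count of transport genes that rose was 21 to 26, against 23, and the count that fell was 7 in all 15. The cutoff count stayed at 1 higher and 0 lower. The median log2 fold change of the 36 genes was 0.22 to 0.24 with a library left out, 0.28 after rescaling to equal FPKM sums and 0.25 with limma-voom. For the COPII inner coat it was 0.52 to 0.55 with a library left out, 0.58 with a pseudocount of 0.1, 0.58 after rescaling and 0.59 with limma-voom. Rescaling gave 0.27 for the outer coat, 0.31 for COPI, 0.0514 for TMED, -0.0606 for the KDEL receptors and 0.36 for the other receptors, for which median-ratio size factors gave 0.29. Exit site and exchange genes ranged from 0.30 (without PBS replicate 1) to 0.41 with a library left out. The KDEL receptors had a median of 0.0645 at a filter of 0.1 and with no filter, since KDELR3 then entered. Clathrin genes called higher numbered 5 rather than 8 at a filter of 5 and with no filter, and retromer genes called lower 0 rather than 1 after rescaling and 0 to 2 with a library left out.

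After rescaling the log2 fold change of COPA was 0.0011 and that of TMED9 0.0376. With a library left out TMED9 ranged from -0.0668 to 0.0389, above 0 without PBS replicate 2 (0.0045) and without PP replicate 3 (0.0389). The share of SEC24B differed by -0.185 to 0.107 points with a library left out, with 0.062 without PBS replicate 1, 0.003 without PBS replicate 3 and 0.107 without PP replicate 1. That of KDELR3 differed by -0.011 to 0.124 points, lowest without PBS replicate 1. The cause of these shifts was not tested. TMED2 was also not called with median-ratio size factors (0.08, adjusted p = 0.0634) or without the eBayes trend (0.09, adjusted p = 0.0810).

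Same-numbered PBS and PP libraries deviated from their group means with correlations of -0.211 to -0.0141. None was positive, and the labels do not say whether a number marks a pair. With the number as a replicate block, 22 transport genes rose and 7 fell. TMED2 was lost (0.09, adjusted p = 0.0778).

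With 3 libraries per treatment, small differences were near the limit of the test, as the intervals of SAR1A, SEC16A and KDELR2 show. COPZ2 and KDELR3 had at most 30 counts in a library, too few to show a moderate change.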
